A study of Glycine max with 4 samples.

Results

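The 100 gene models with the highest mean level in leaves of well-watered soybean (Glycine max) were followed through 12 RNA-seq libraries of 2 lines, with and without drought. They were chosen from 54175 gene models by their mean FPKM over the 6 control libraries, each library weighted equally, after 10 named gene models had been set aside. FPKM counts the reads of a gene model relative to its length and to the mapped reads of its library. The libraries form 4 groups of 3. PI 567690 drought and PI 567690 control come from a line labelled drought tolerant, and Pana drought and Pana control from a line labelled drought susceptible. Plants were grown in pots of soil and sand. Drought means 15 days of water stress begun at the V5 vegetative stage, and the leaves of all groups are labelled as taken at the R2 reproductive stage. The design text calls the 3 libraries of a group biological replicates, but nothing says which plants they came from, so p-values measure only the spread between these libraries.

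The leaf of a green plant spends much of its messenger RNA on few products. As background, transcripts for light capture and carbon fixation in the chloroplast are usually the most plentiful, because these proteins are made in very large amounts. Water shortage closes the stomata, limits the supply of carbon dioxide and is known to lower many such transcripts, while transcripts of protective and storage proteins can become plentiful. Since FPKM is relative, a transcript can take a smaller share of a library because it became rarer or because others became more plentiful, and fewer cells of a type cannot be told apart from less RNA per cell. The deposited table gives identifiers without names, and none of the 100 (0 of 54175 in the whole table) matched the name table used here. No role is therefore given to any gene model, no sequence is printed, and the label of leaf could not be set against marker genes.

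The control values that chose the gene models are given as a description. The members spanned 847 FPKM (Glyma15g22780, the last inside) to the level of Glyma18g04081 at the top. The 3 just inside, Glyma08g41660, Glyma12g35050 and Glyma15g22780, averaged 872, 861 and 847 FPKM over the 6 control libraries. The 3 just outside, Glyma04g01920, Glyma08g37270 and Glyma06g18720, averaged 834, 828 and 824 FPKM, so the list ends in a continuous run of levels and not at a gap. Of the 10 gene models set aside, 8 ranked between 1 and 37 among all gene models, and Glyma08g08761 and Glyma08g21410 ranked 631 and 653. By the chromosome number in their identifiers the members lie on 19 of the 20 chromosomes, with 8 on chromosome 11 and 0 on chromosome 17.

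Together the 100 gene models held a large part of the summed FPKM in the control libraries and a smaller part in most drought libraries. Their share was 10.8%, 16.1% and 16.1% in the PI 567690 drought libraries, against 22.3%, 22.4% and 22.6% in the PI 567690 control libraries. It was 8.93%, 14.9% and 22.0% in the Pana drought libraries, against 30.9%, 26.8% and 19.96% in the Pana control libraries. The groups did not overlap in PI 567690, whereas in Pana the share of drought library 3 lay above that of control library 3. The means were 14.3% ± 3.08 and 22.4% ± 0.144 in PI 567690 drought and control, and 15.3% ± 6.54 and 25.9% ± 5.54 in Pana drought and control (SD, n = 3 each). The members were chosen for high control values, so these shares are a description and no test was made.

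**Figure D1:**
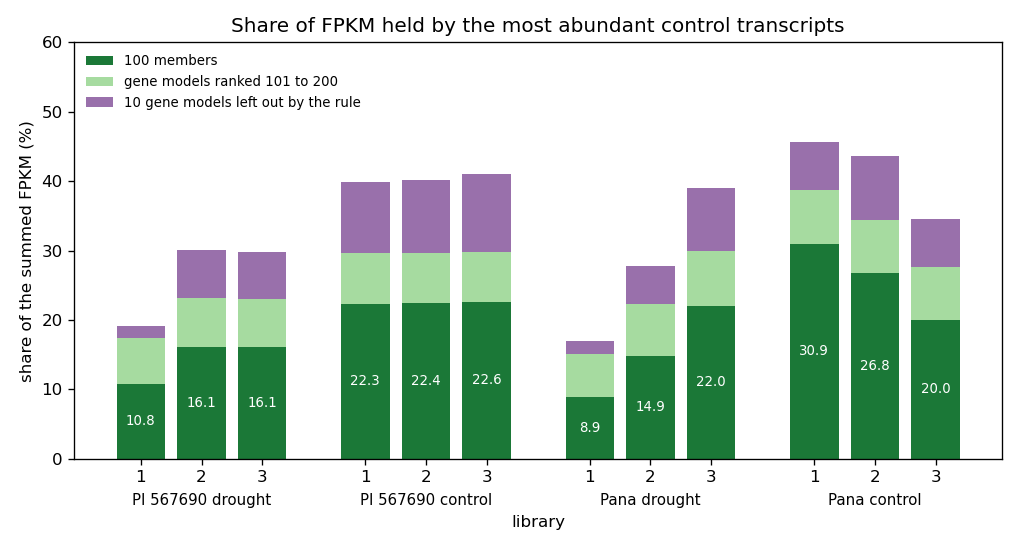
Share of the summed FPKM (vertical axis, %) held in each of 12 libraries by the 100 members, by the next 100 gene models by the same rule and by the 10 gene models set aside, stacked from 0. The members' share is lowest in library 1 of both drought groups, at 10.8% and 8.93%, and highest in Pana control library 1, at 30.9%.

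The next 100 gene models by the same rule differed less between libraries. They held 6.87% ± 0.242 in PI 567690 drought and 7.29% ± 0.109 in PI 567690 control. In Pana they held 7.21% ± 0.891 under drought and 7.72% ± 0.0318 in the controls (SD, n = 3 each). The 10 gene models set aside held 1.77%, 6.86% and 6.78% in PI 567690 drought, against 10.1%, 10.5% and 11.2% in PI 567690 control. In Pana they held 1.78%, 5.42% and 9.06% under drought and 7.02%, 9.22% and 6.79% in the controls. Library 1 of both drought groups was the lowest of its group for all 3 sets.

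The ranking of the controls held unevenly in the drought libraries. Of the 100 members, 39, 67 and 68 were among the 100 highest gene models of the PI 567690 drought libraries, against 85 in each PI 567690 control library (the same 10 gene models set aside throughout). In Pana the numbers were 23, 57 and 81 in the drought libraries and 67, 88 and 74 in the control libraries. The 100 highest gene models of each library itself held 18.6%, 20.9% and 20.6% of the FPKM in PI 567690 drought. In the PI 567690 controls they held 23.5%, 23.5% and 23.8%. In Pana they held 22.3%, 19.4% and 23.7% under drought and 34.5%, 27.5% and 21.7% in the controls. The members held 8.93% in Pana drought library 1, where this share was 22.3%. In all, 39 members were among the 100 highest in all 6 control libraries, 18 in all 6 drought libraries and 11 in all 12 libraries, while 13 were in none of the 6 drought libraries. The members were chosen by their control levels, so higher counts in the control libraries follow from the choice and nothing is read from them.

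Most members shared one course over the libraries. With each level set relative to the member's own mean on the log2(FPKM + 1) scale, 64 of the 100 correlated at over 0.8 with the mean course of the other members (12 libraries, Pearson, across libraries that share their depth and composition). The median over all pairs of members was 0.727. Both values include the control libraries that chose the members, so part of the shared course can follow from the choice. They were not set beside those of other gene models. In PI 567690 all 3 drought libraries lay below all 3 control libraries for 78 members and above them for 10. Over all 32697 gene models tested the corresponding shares were 21.4% and 42.4%. In Pana the numbers were 8 members below and 1 above, against 3.94% and 15.8% of all gene models tested. These counts use the control libraries that chose the members and nothing is read from them.

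**Figure D2:**
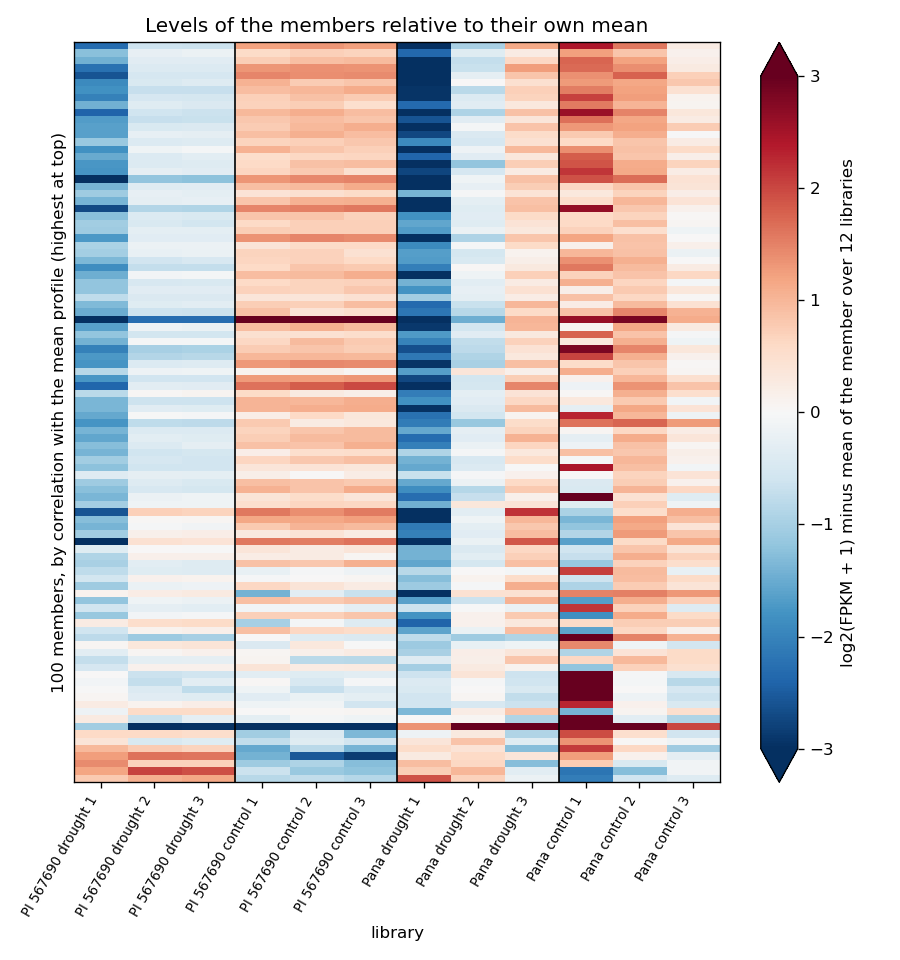
Level of each of the 100 members (rows, ordered by correlation with the mean course of the others) in 12 libraries (columns), as log2(FPKM + 1) minus the member's own mean. Blue (below the member's mean) is deepest in Pana drought library 1 and PI 567690 drought library 1, most rows are red (above it) in the PI 567690 controls, and the 7 members at the foot correlate below 0 with the rest.

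Within the drought groups, which the choice of members did not use, the order of the libraries was largely common to the members. Library 1 was the lowest of its group in both lines for 86 of the 100, against 22.2% of all gene models tested. The members stood in PI 567690 drought library 1 at a median of 0.548 times their mean in libraries 2 and 3. PI 567690 drought libraries 2 and 3 were close to each other, within 10% for 96 members. The share of all gene models this close was not counted, so it is not read as a trait of the members. In Pana, drought library 1 was the lowest and library 3 the highest for 82 members, against 22.3% of all gene models tested. The members stood in Pana drought library 1 at a median of 0.181 times their level in library 3, and in library 2 at 0.587 times that level.

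The value of Pana drought library 3 fell within the range of the 3 Pana control libraries for 75 members, beside 49.4% of all gene models tested. For Pana drought library 1 this held for 13 members, beside 30.7%, and for library 2 for 33, beside 38.9%. These 3 counts use the Pana control values that chose the members, and nothing is read from them. Spread within a group differed widely: the median coefficient of variation of a member was 32.4% in PI 567690 drought, 6.95% in PI 567690 control, 70.7% in Pana drought and 46.0% in Pana control (n = 3 each). Depth, read from the steps in low values, was lowest in PI 567690 drought library 1, PI 567690 control library 1 and Pana control library 1, at 48.3%, 50.3% and 50.5% of that of Pana drought library 3. The members' shares in these 3 libraries were 10.8%, 22.3% and 30.9%, in that order. The part of depth in the differences between libraries was not tested.

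The highest member, Glyma18g04081, shows the common course. It had 979, 1983 and 1958 FPKM in PI 567690 drought, against 5776, 3977 and 4210 FPKM in PI 567690 control. In Pana it had 790, 1539 and 4942 FPKM under drought, against 10413, 11213 and 8166 FPKM in the controls. The groups did not overlap in either line, which held for 5 members in the downward direction (1.4% of all gene models tested). Glyma11g34230, the fourth by level, was another of the 5, with 1028, 1860 and 1826 FPKM in PI 567690 drought and 5266, 3800 and 4099 FPKM in PI 567690 control, and with 639, 1612 and 4295 FPKM in Pana drought and 5309, 8000 and 5941 FPKM in Pana control.

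Other members near the top followed the same course with a deeper low in library 1. Glyma14g01130 had 877, 1915 and 1929 FPKM in PI 567690 drought against 5929, 6166 and 6681 FPKM in its controls, and 402, 1779 and 5108 FPKM in Pana drought against 9063, 7232 and 4256 FPKM in its controls. Glyma02g47560 had 307, 1291 and 1307 FPKM in PI 567690 drought against 5057, 4863 and 4951 FPKM in its controls, and 52.8, 1534 and 3291 FPKM in Pana drought against 4792, 6242 and 3002 FPKM in its controls. Both stood apart from their controls in all PI 567690 drought libraries, while Pana drought library 3 lay within the range of the Pana controls. Glyma13g35800 had 245, 790 and 787 FPKM in PI 567690 drought against 2827, 3046 and 2873 FPKM in its controls, and 49.2, 622 and 2683 FPKM in Pana drought against 6602, 3676 and 1458 FPKM in its controls. It was the member closest to the mean course (r = 0.991, 12 libraries).

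Glyma04g02240, Glyma06g15540 and Glyma07g14340, also among the 10 highest, kept to this course, with log2 differences between drought and control of -1.57, -2.09 and -2.22 in PI 567690 and of -2.25, -2.53 and -2.72 in Pana. The remaining members of the top 10 did not. Glyma08g18510 had 2343, 2918 and 2837 FPKM in PI 567690 drought against 3344, 3314 and 2947 FPKM in its controls, and 2244, 3526 and 3104 FPKM in Pana drought against 15680, 5686 and 2707 FPKM in its controls. Outside Pana control libraries 1 and 2 its level was nearly even. Glyma07g35310 had 4719, 2639 and 2802 FPKM in PI 567690 drought and 2164, 2838 and 2415 FPKM in PI 567690 control, with overlapping groups. Its Pana levels were 4682, 6524 and 2813 FPKM under drought and 9263, 3735 and 3325 FPKM in the controls, also overlapping.

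Over all 100 members the log2 difference between drought and control had a median of -1.36 in PI 567690, where that of all gene models tested was 0.21. In Pana the medians were -1.23 for the members and 0.32 for all gene models tested. The difference was below 0 in both lines for 83 members and above 0 in both for 5, and at or below -1 in both for 46. The corresponding shares of all gene models tested were not counted. With libraries scaled so that the typical gene model has the same level in each, the medians of all gene models were 0.01 in PI 567690 and 0.02 in Pana, and those of the members -1.61 and -1.64. These values describe gene models picked for high controls and were not used as evidence of a response.

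**Figure D3:**
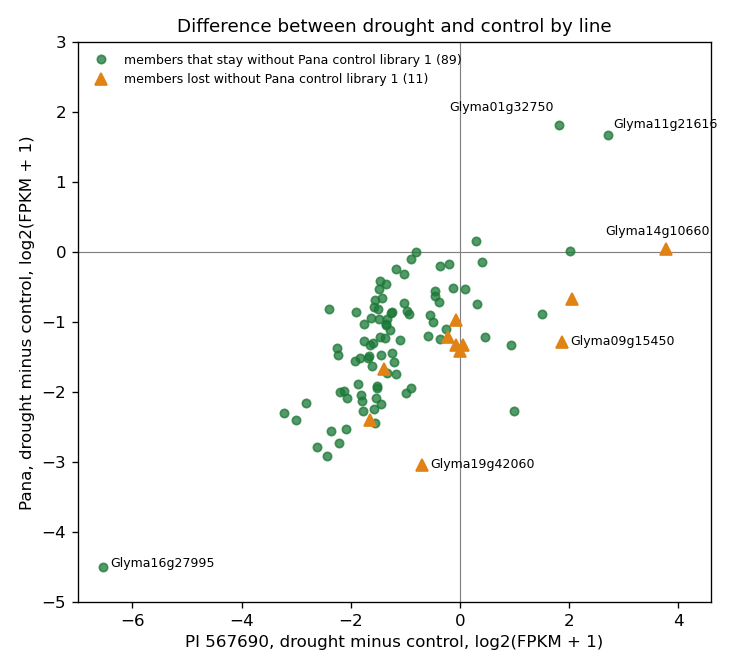
Difference between drought and control on the log2(FPKM + 1) scale in PI 567690 (horizontal axis) and in Pana (vertical axis) for the 100 members, with triangles for the 11 that owe their place to Pana control library 1. Most points lie below 0 on both axes, and Glyma01g32750 and Glyma11g21616 stand above 1 on both.

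The largest negative log2 differences between drought and control in both lines belonged to Glyma16g27995. It had 6.1, 48.6 and 48.6 FPKM in PI 567690 drought, against 1993, 2591 and 2658 FPKM in PI 567690 control. In Pana it had 1.81, 85.6 and 484 FPKM under drought, against 1474, 1742 and 522 FPKM in the controls. The groups did not overlap in either line, with log2 differences of -6.53 and -4.49. Glyma11g18640 came next in PI 567690, with 90.5, 316 and 309 FPKM under drought and 1810, 1955 and 2028 FPKM in the controls, and with 58.3, 658 and 1339 FPKM in Pana drought against 2742, 2310 and 972 FPKM in its controls, where the groups overlapped. Glyma12g09731 (-3 and -2.39) and Glyma09g28200 (-2.83 and -2.16) had the next largest negative differences in PI 567690, each given for PI 567690 and then for Pana.

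Glyma05g08590 showed the widest gap between library 1 and the others under drought among the named members. It had 140, 1376 and 1330 FPKM in PI 567690 drought against 2539, 2206 and 2493 FPKM in its controls. Its Pana levels were 13.7, 678 and 3765 FPKM under drought against 434, 1211 and 1802 FPKM in its controls. The Pana drought libraries thus lay on both sides of the Pana controls. Glyma12g34770, with log2 differences of -2.36 in PI 567690 and -2.56 in Pana, had 30.7, 596 and 2284 FPKM in Pana drought against 3079, 2512 and 1146 FPKM in Pana control.

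A few members ran against the common course, and 7 correlated with it below 0. Glyma01g32750, with the most negative correlation (r = -0.866), had 7135, 8730 and 9354 FPKM in PI 567690 drought, against 2333, 2505 and 2305 FPKM in PI 567690 control. In Pana it had 15744, 6781 and 3682 FPKM under drought, against 986, 2812 and 3198 FPKM in the controls. It was the 1 member whose drought libraries lay above all controls in both lines, and in Pana drought library 1 it was the highest member. Glyma11g21616 had 7914, 14254 and 13520 FPKM in PI 567690 drought against 2252, 1618 and 1512 FPKM in its controls. Its Pana levels were 5824, 7024 and 2838 FPKM under drought against 765, 1452 and 3238 FPKM in its controls, where drought library 3 overlapped with the controls. It was the highest member in all 3 PI 567690 drought libraries and in Pana drought library 2.

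For Glyma14g10660, Glyma07g15800, Glyma12g24840, Glyma06g37260 and Glyma09g15450 all PI 567690 drought libraries also lay above their controls, while the Pana groups overlapped. The first 3 are given here. Glyma14g10660 had 3012, 3862 and 3823 FPKM in PI 567690 drought against 467, 216 and 172 FPKM in its controls, and 1516, 1891 and 1626 FPKM in Pana drought against 2980, 1367 and 1028 FPKM in its controls. Glyma07g15800 had 3808, 2294 and 2286 FPKM in PI 567690 drought against 680, 749 and 587 FPKM in its controls, and 2718, 2178 and 588 FPKM in Pana drought against 2411, 1044 and 1325 FPKM in its controls. Glyma12g24840 had 1679, 1465 and 1361 FPKM in PI 567690 drought against 295, 487 and 327 FPKM in its controls, and 1260, 1132 and 355 FPKM in Pana drought against 3689, 1321 and 411 FPKM in its controls. The difference between the responses of the lines passed the test for Glyma14g10660 alone of these members. Glyma12g24840 and Glyma14g10660 would not be members without Pana control library 1. Glyma11g29460 (0.29 and 0.17) and Glyma06g11890 (-0.8 and 0) completed the highest log2 differences in Pana, each given for PI 567690 and then for Pana.

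At the other end, the steadiest member, by the SD of log2(FPKM + 1) over the 12 libraries, was Glyma04g01020. It had 560, 602 and 596 FPKM in PI 567690 drought, 832, 738 and 857 FPKM in PI 567690 control, 457, 719 and 802 FPKM in Pana drought, and 735, 1167 and 972 FPKM in Pana control. Its highest library held 2.55 times the level of its lowest, the smallest such ratio among the 100, where the median was 12.5. In PI 567690 all its drought libraries lay below all its controls, and its correlation with the mean course was 0.837. Glyma14g39940, with 666, 869 and 913 FPKM in PI 567690 drought against 871, 930 and 980 FPKM in its controls, had overlapping groups there. In Pana it had 424, 947 and 1069 FPKM under drought against 441, 1109 and 1237 FPKM in its controls. Both Pana groups had a low library 1 and overlapped. Glyma02g05350 and Glyma02g47960 followed, with an SD of log2(FPKM + 1) over the 12 libraries of 0.586 and 0.591. Their correlations with the mean course were 0.464 and 0.948, so a small spread did not mean a different course.

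**Figure D4:**
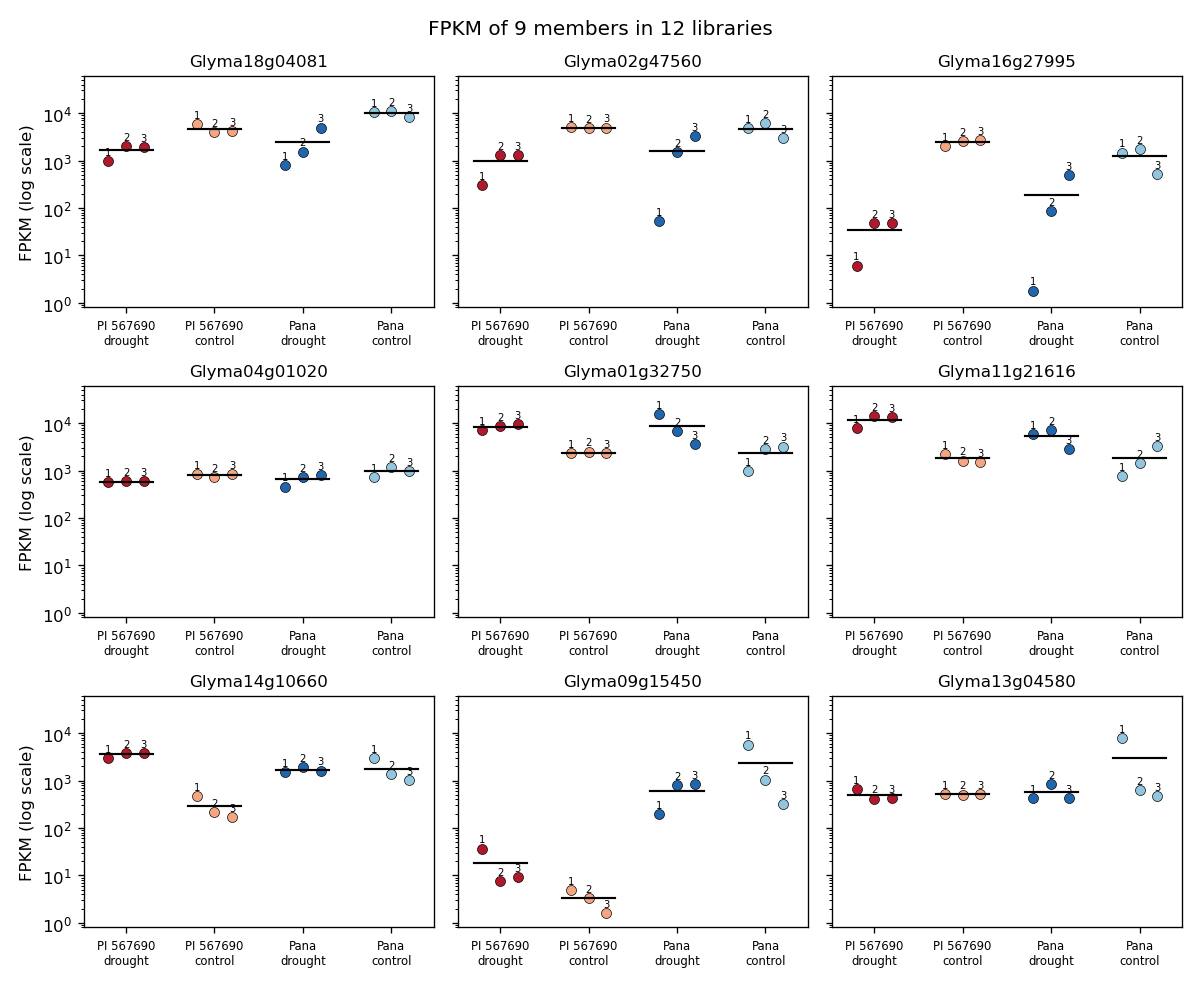
FPKM (log scale) of 9 members in PI 567690 drought, PI 567690 control, Pana drought and Pana control, with numbers for the libraries and a bar for the mean of 3. Glyma18g04081, Glyma02g47560 and Glyma16g27995 show the common course, and Glyma04g01020 is the steadiest member. Glyma01g32750 and Glyma11g21616 are higher under drought, and Glyma13g04580 is high in Pana control library 1, at 7965 FPKM.

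Single libraries brought some gene models onto the list. Without Pana control library 1, 89 of the 100 would remain, and without any other 1 control library 95 to 97 would. The summed FPKM of Pana control library 1 was 917256, against 689233 to 772891 in the other control libraries. With members chosen by the mean share of each library's sum, 99 of the 100 were the same. For 8 members Pana control library 1 held over 5 times the highest level of the other 11 libraries. Glyma13g04580 had 7965 FPKM there and 416 to 854 FPKM in the others, and Glyma15g03080 had 6537 FPKM there and 336 to 592 FPKM in the others. Glyma14g14210 had 5561 FPKM there and 233 to 404 FPKM in the others. Beside this library these 3 were even over both lines and both treatments. The other 5 were Glyma15g43100, Glyma19g42060, Glyma09g15450, Glyma13g11920 and Glyma11g33922. Together the 8 held 5.15% of the FPKM in Pana control library 1, against 0.356% to 0.716% in the other 11 libraries. More gene models stood at 0 in that library (15657) than in any other (9535 to 12093), and the part of this in the levels was not tested.

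Glyma19g42060 was the 1 of these with a difference between the Pana groups in every library. It had 256, 206 and 233 FPKM in Pana drought, against 6294, 1220 and 897 FPKM in Pana control, and the groups did not overlap. In PI 567690 it had 250, 203 and 218 FPKM under drought, against 438, 332 and 323 FPKM in the controls. The 6 drought libraries of both lines lay between 203 and 256 FPKM.

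Some members ran nearly in parallel. Glyma06g20960 and Glyma02g07180 were the closest pair, with a Pearson correlation of 0.997 over the 12 libraries on the log2(FPKM + 1) scale. Glyma06g20960 had 404, 821 and 829 FPKM in PI 567690 drought against 1968, 2040 and 2287 FPKM in its controls. Glyma02g07180 had 320, 698 and 716 FPKM in PI 567690 drought against 1495, 1737 and 1773 FPKM in its controls. In Pana they had 114, 897 and 1774 FPKM (Glyma06g20960) and 73.9, 688 and 1523 FPKM (Glyma02g07180) under drought. Glyma11g11870 and Glyma11g11900 were the 1 pair of members close to each other by identifier, with 2 gene models between them on chromosome 11, and correlated at 0.994. How reads that match several near-identical gene models were assigned is not stated, which leaves the level of any such copy uncertain.

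No drought library was used to choose the members, so the difference between the lines under drought is a measure the choice did not use directly. For a member that entered through the controls of 1 line, a difference between the lines present in both treatments would carry over to it. The error of that difference is not free of the choice where it is estimated over all 12 libraries, since 6 of them are the controls. A fit of the 6 drought libraries alone uses no control library, and its results are given beside. With limma on log2(FPKM + 1) over all 12 libraries and Benjamini-Hochberg adjustment over 32697 gene models, 0 of the 100 members differed between PI 567690 drought and Pana drought at an adjusted p under 0.05. Of all gene models tested 0.388% passed (0.291% higher and 0.0979% lower in PI 567690). At an unadjusted limma p under 0.05 there was 1 member. A fit of the 6 drought libraries alone also called 0 members (2 at an unadjusted p under 0.05), beside 0.146% of all gene models tested. The median difference of the members was 0.02 (PI 567690 minus Pana), beside 0.06 for all gene models tested, and 81 members lay within 0.5 of 0.

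The intervals do not show that the lines were alike. The 95% interval of a member's difference had a median width of 1.45 to either side on the log2 scale. It lay wholly between -1 and 1 for 1 member, Glyma04g01020, and between -2 and 2 for 69. Without Pana drought library 1 the median difference of the members was -0.73, and without Pana drought library 3 it was 0.59, so its sign differs with the libraries that enter.

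**Figure D5:**
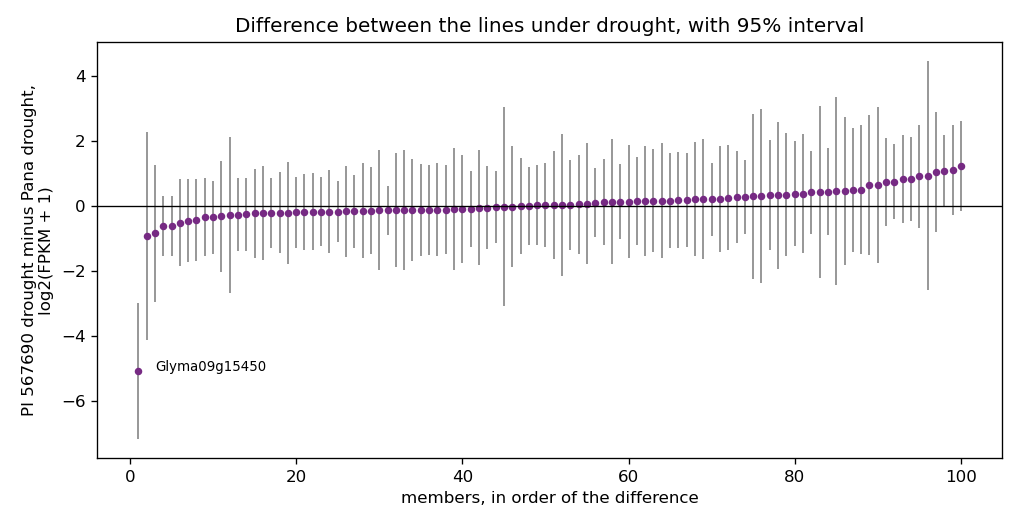
Difference between PI 567690 drought and Pana drought on the log2(FPKM + 1) scale for the 100 members, in order of the difference, with 95% intervals from limma. Glyma09g15450 stands at -5.09, and 81 members lie within 0.5 of 0.

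The 1 member with an unadjusted p under 0.05 was Glyma09g15450. It had 36.8, 7.67 and 9.05 FPKM in PI 567690 drought, against 198, 786 and 834 FPKM in Pana drought, and the groups did not overlap. The log2 difference was -5.09 ± 0.96 SE (limma, adjusted p = 0.0549). In the fit of the 6 drought libraries alone its adjusted limma p was 0.145. With all groups in the fit it passed when 1 of 4 libraries was left out: PI 567690 drought library 1 (limma, adjusted p = 0.0495), Pana drought library 1 (0.0322), Pana control library 1 (0.0149) or Pana control library 3 (0.0272). The controls that chose this member thus also move its adjusted p. Over the 22 settings its adjusted p ranged from 0.0149 to 0.32. In the controls, which chose it, it had 4.98, 3.32 and 1.6 FPKM in PI 567690 and 5730, 1044 and 313 FPKM in Pana. It was thus the lowest member in every PI 567690 control library and owed its place on the list to Pana. Pana was the higher line in the controls as under drought, so the direction of its drought difference is not free of the choice.

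Glyma14g10660 followed with a log2 difference of 1.08 ± 0.5 SE (limma, adjusted p = 0.743). Glyma11g21616 had a log2 difference of 1.24 ± 0.63 SE (limma, adjusted p = 0.816). For both, all 3 PI 567690 drought libraries lay above all 3 Pana drought libraries, as they did for Glyma18g39690, Glyma06g37260, Glyma14g06310 and Glyma12g24840. These 6 of 100 compare with 10.7% of all gene models tested, and the 1 member lower without overlap compares with 3.37%. The smallest exact two-sided permutation p for 3 libraries against 3 is 0.1, so no single member could pass by such a test.

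The remaining contrasts use the libraries that chose the members, and their counts are given with nothing read from them. Between PI 567690 drought and control limma called 6 members, 3 higher and 3 lower, beside 12.3% of all gene models tested (6.06% higher and 6.25% lower). With only the 6 PI 567690 libraries in the fit it called 75 (9 higher and 66 lower), beside 47.3%. The fit over all 12 libraries estimates 1 spread for the 4 groups together. Leaving out 1 Pana drought library gave counts of 44 (library 1), 3 (library 2) and 27 (library 3). Of all gene models tested, 5695 of 32303, 3649 of 32321 and 7031 of 32518 were then called. Leaving out 1 Pana control library gave 10, 3 and 5, beside 6428 of 32505, 3289 of 32551 and 3975 of 32472. Each PI 567690 drought library left out gave 2, beside 1711 of 32220, 2132 of 32486 and 2079 of 32504. Each PI 567690 control library left out gave 1, beside 1580 of 32180, 1227 of 32194 and 1113 of 32189. With both Pana drought library 3 and Pana control library 1 left out, a choice made after seeing the data, 45 members were called, beside 36.8% of all gene models tested.

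Between Pana drought and control limma called 1 member, Glyma19g42060, beside 2.15% of all gene models tested (1.5% higher and 0.658% lower). Leaving out 1 Pana drought library gave counts of 0, 0 and 49 (libraries 1, 2 and 3). Of all gene models tested, 265 of 32303, 358 of 32321 and 8256 of 32518 were then called. Leaving out 1 Pana control library gave 1, 0 and 9, beside 440 of 32505, 140 of 32551 and 5266 of 32472. Leaving out library 2 or 3 of either PI 567690 group gave 0, beside 276 to 289 of all gene models tested. Without both libraries named above 41 were called, beside 31.4%. With only the 6 Pana libraries in the fit limma called 0 members, with 7 at an unadjusted p under 0.05, beside 0.00689% of all gene models tested. Between PI 567690 control and Pana control it called 3, Glyma09g15450, Glyma14g10660 and Glyma19g42060, all lower in PI 567690, beside 14.6% of all gene models tested (11.4% higher and 3.13% lower). There were 6 when Pana drought library 1 was left out, beside 5595 of 32303 gene models tested. Likewise there were 6 when Pana control library 3 was, beside 7038 of 32472. The groups did not overlap for 10 members lower in PI 567690 control, beside 12.5%, and 15 higher, beside 28.1%. Each of the 3 called by limma would leave the list without Pana control library 1. The difference between the responses of the lines was called for 1 member, Glyma14g10660, higher in PI 567690, beside 5.59% of all gene models tested (1.36% higher and 4.24% lower).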

How the data were processed

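Leaf RNA-seq of 4 groups was read from 1 table with 12 value columns, 3 per group, each placed by the line, treatment and number in its name. The deposited values were taken as FPKM computed by the authors. The table names no unit; it was inferred from fractional values with unequal column totals. Cufflinks, Cuffdiff, TopHat 1.4.1 and FastQC were used, per the submitters' processing notes, which give them no order. For the annotation and the build, nothing is given in the sources used here. Relative depth (48.3% to 100%) came from the most frequent ratio of values under 0.3 FPKM between libraries.

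A gene model entered the tests if 3 or more libraries had 1 FPKM or more (32697 did). Tests used limma 3.58.1 (R 4.3.3, trend, 1 coefficient per group) on log2(FPKM + 1), with Benjamini-Hochberg adjustment at 0.05. Fold changes on that scale understate the change of low gene models. All 100 members passed this filter. The script was tested on simulated data. The members, and the rules below, were chosen with earlier results of these data known. Named were the 10 highest members, the 6 largest positive and negative drought differences per line, the 4 steadiest and 4 most variable members, the 4 with the largest share of their control sum in 1 library, members called between the lines under drought (none) and the gene models next to the limit of the list. Members outside this rule (among them the parallel pairs, the 8 high in Pana control library 1 and the 6 higher in PI 567690 drought) were named after their values were seen. Lists by function could not be applied without names. Alternatives covered the pseudocount, the filter, scaling, libraries left out, a replicate block and the rule for members. Python 3.11.15, numpy 2.4.6, pandas 2.3.3, scipy 1.17.1 and matplotlib 3.10.9 were used.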

Additional observations from a re-analysis of the deposited data

Results flagged for a closer look

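The difference between drought and control was set between the lines for 4 members, of which 1 passed the test. All of these contrasts use the control libraries that chose the members. Glyma14g10660 passed the test of the difference of the responses itself: its log2 difference of responses (PI 567690 minus Pana) was 3.72 ± 0.71 SE (limma, adjusted p = 0.0131), and it was the 1 member called, beside 5.59% of all gene models tested. The call held in 18 of 21 settings (adjusted limma p between 0.0131 and 0.0636). These settings share most of the control libraries, so they are not independent support. Without Pana control library 1 Glyma14g10660 would not be a member, and its adjusted limma p was then 0.015. It was lost without PI 567690 control library 2 or 3 (adjusted p = 0.0604 and 0.0636) and with no filter on low values (adjusted p = 0.0543). The number of members called was 2 without Pana drought library 1 or Pana control library 1 and 3 without Pana control library 3. Of all gene models tested, 2318 of 32303, 2007 of 32505 and 2239 of 32472 were then called, in that order.

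For 3 further members every PI 567690 drought library lay above its controls while every Pana drought library lay below its controls. The share of all gene models tested with both features was not counted, so nothing is read from the 3. Taken singly, 42.4% of gene models lay above in PI 567690 and 3.94% below in Pana. Glyma10g33710 had 913, 979 and 1013 FPKM in PI 567690 drought against 316, 680 and 533 FPKM in its controls, and 77.6, 1153 and 1159 FPKM in Pana drought against 2349, 2416 and 2069 FPKM in its controls. Glyma20g33880 had 1182, 1432 and 1467 FPKM in PI 567690 drought against 501, 950 and 755 FPKM in its controls, and 186, 1089 and 1243 FPKM in Pana drought against 1474, 1658 and 1646 FPKM in its controls. Glyma18g39690 had 2288, 2075 and 2214 FPKM in PI 567690 drought against 1755, 1784 and 1283 FPKM in its controls, and 1287, 1385 and 1237 FPKM in Pana drought against 9315, 2094 and 1406 FPKM in its controls. The log2 differences of the responses were 3.26, 2.26 and 1.67, and the limma test of each did not pass (adjusted p = 0.155, 0.189 and 0.332, in the order of the genes).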

How the results depend on the processing

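The 3 libraries per group limit every comparison, and with FPKM the number of reads behind a value is not given. The direction of each test named above (Glyma09g15450, Glyma14g10660 and Glyma11g21616) was the same in every setting run. The share of FPKM in PI 567690 control (22.4%) was 23.2% with members chosen by the median, 22.8% by the mean log2 level, 25.1% without the 10 gene models set aside in the sum, 23.1% without the highest gene model and 21.8% for the 89 members that stay without Pana control library 1 (an alternative added after seeing the data). With single libraries left out the shares ranged over 13.4% to 16.1% (PI 567690 drought), 22.1% to 23.3% (PI 567690 control), 11.9% to 18.4% (Pana drought) and 23.4% to 28.6% (Pana control). Members among the 100 highest by group mean (61, 85, 68 and 88) ranged over 56 to 68, 82 to 93, 45 to 75 and 76 to 91 in the same order, the 45 without Pana drought library 3.

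Members called between PI 567690 drought and control (6) were 2 with no filter, 3 at a mean of at least 5 FPKM, 2 with PI 567690 drought libraries 2 and 3 averaged, 75 in PI 567690 alone and 1 to 44 with single libraries left out. Over all gene models these settings called 5220 of 50530, 1504 of 17787, 2112 of 32478, 14615 of 30914 and 1113 to 7031. Between Pana drought and control (1) the members called were 0 with no filter, 0 with those libraries averaged, 0 in Pana alone and 0 to 49 with single libraries left out. Over all gene models these settings called 395 of 50530, 288 of 32478, 2 of 29041 and 140 to 8256. With Pana drought library 3 and Pana control library 1 both left out, an alternative added after seeing the data, the members called were 45 and 41, beside 36.8% and 31.4% of all gene models tested. It also gave 1 member between the lines under drought and 2 for the difference of responses, beside 425 and 2957 of 32288 gene models. The ranges with single libraries left out were 0 to 1 between the lines under drought, 2 to 6 between the lines under control and 0 to 3 for the difference of responses. Over all gene models those ranges were 53 to 193, 1978 to 7038 and 459 to 2318. With no filter the difference of responses was called for 0 members, beside 2529 of 50530 gene models. The causes were not tested beyond the libraries and gene models each alternative removes.

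Whether the replicate numbers pair the libraries was not settled. Same-numbered PI 567690 drought and Pana drought libraries deviated together at r = 0.656, -0.109 and 0.608 across genes. PI 567690 drought library 2 and Pana drought library 3 did so at 0.603. Same-numbered drought and control libraries gave 0.026, 0.026 and -0.034 in PI 567690 and 0.16, -0.055 and 0.036 in Pana. With a replicate block limma called 0 members between the lines under drought, 9 between PI 567690 drought and control, 1 in Pana, 3 between the controls and 1 for the difference of responses. Of all 32697 gene models tested it called 108, 4676, 533, 5218 and 2059, in the same order.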
